A study of Mus musculus with 11 samples.

Results

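Galanin and neurotensin are neuropeptides of the hypothalamus, and the genes described here are Gal and Nts, which encode their precursors, and Galr1 and Ntsr2, which encode a receptor for each. The 4 genes were found by name in the deposited table, which has 14864 genes, and all 4 passed the filter on low values that kept 13184 genes. They were chosen by name with their measured differences between genotypes already known, among them the lower Gal level in heterozygotes. The genotype values below are therefore a description that places each gene within the fit across all genes, and they are no independent support. The same holds for the lists of related genes.

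RNA was sequenced from the hypothalamus of mice aged 60 to 70 days after birth. The 5 wild type libraries (WT, 2 females and 3 males) and the 6 libraries from mice heterozygous at Myt1l (Het, 3 females and 3 males) are called biological replicates in the study's design text, and the labels name no treatment, strain or allele. The protein made from Myt1l is a neuronal transcription factor with zinc fingers, and the study asked what its loss does in this tissue. Values are CPM (a gene's corrected count times a factor for its library) after the authors' correction for unwanted variation. Corrected counts totalled 23701175 to 24941704 in WT and 22921048 to 23799167 in Het. The factor did not offset these totals. It was 0.0422 CPM per count in WT replicate 3, with the highest total, and 0.0419 in Het replicate 5, with the lowest. All libraries instead share an upper quartile of 5.473 on the log2 scale. Scaling to equal totals was not tested.

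Galanin is cut from its precursor at pairs of basic residues and acts on 3 G protein coupled receptors, of which Galr1 couples to inhibitory G proteins. In the hypothalamus, galanin neurons of the preoptic area take part in parental behaviour and sleep, and others lie in the lateral and arcuate regions. Neurotensin comes from a precursor that also yields neuromedin N. It lowers body temperature and food intake, and neurotensin neurons of the lateral hypothalamus reach dopamine neurons of the midbrain. Ntsr1 is its high-affinity receptor in neurons, and Ntsr2 is a second receptor that in the rodent brain is found largely in astrocytes.

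The coding stretches that become the mature peptides are shown because the level of these genes is read as the level of a peptide precursor, and 1 of them holds more than 1 peptide. They were read from the GENCODE M21 transcripts (GRCm38) within the longest open reading frame. Capitals mark the bases that encode the peptides, and lower case marks the flanking codons at which the precursor is cut.
Gal, galanin: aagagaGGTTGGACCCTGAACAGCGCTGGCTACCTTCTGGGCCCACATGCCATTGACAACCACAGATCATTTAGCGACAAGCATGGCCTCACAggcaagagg
Nts, neuromedin N and neurotensin: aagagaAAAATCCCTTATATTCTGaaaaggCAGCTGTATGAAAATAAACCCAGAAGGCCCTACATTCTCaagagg
The Gal stretch is 102 bases long with 29 codons of galanin, followed by the glycine codon that gives the peptide its amide. The Nts stretch is 75 bases long and holds 6 codons of neuromedin N and then 13 codons of neurotensin, so a read from Nts counts for both peptides.

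The promoters of both peptide genes are shown because both genes were lower in most Het libraries. They come from RefSeq (GRCm38.p6) and run from 250 bases before to 50 bases after the annotated start. The promoters of Gal, Nts and Ntsr2 were searched, and that of Galr1 was not. Gal is on the minus strand at chr19:3414495-3414794 and Nts on the minus strand at chr10:102490369-102490668. Capitals mark a match to the motifs searched on both strands.
Gal promoter: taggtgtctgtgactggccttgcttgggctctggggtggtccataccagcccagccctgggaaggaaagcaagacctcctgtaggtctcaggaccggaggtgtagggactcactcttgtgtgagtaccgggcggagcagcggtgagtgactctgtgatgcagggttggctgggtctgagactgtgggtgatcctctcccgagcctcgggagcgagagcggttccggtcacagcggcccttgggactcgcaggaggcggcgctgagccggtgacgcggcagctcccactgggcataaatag
Nts promoter: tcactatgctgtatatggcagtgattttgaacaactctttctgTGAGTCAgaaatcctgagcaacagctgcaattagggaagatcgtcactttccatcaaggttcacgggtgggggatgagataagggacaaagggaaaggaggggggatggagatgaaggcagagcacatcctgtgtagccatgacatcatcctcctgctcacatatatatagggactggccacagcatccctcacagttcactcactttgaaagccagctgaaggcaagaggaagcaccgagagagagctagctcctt
The motifs were AAGTT (the core bound by the MYT1 family, whose reverse is AACTT), TGACGTCA (the cAMP response element), TGANTCA (the AP-1 element) and TATAAA (the TATA box core). The only match in the 3 promoters was an AP-1 element, TGAGTCA, that begins 207 bases before the start of Nts. An AP-1 element matched in 7.81% of 32851 promoters of the same length, the MYT1 core in 39.3%, the cAMP response element in 1.79% and the TATA core in 13.6%. A match or its absence in this window says nothing of what binds there.

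Before the results, the check of the labels bears on every genotype value. The level of Myt1l itself averaged 76.3 ± 15.9 CPM over the 5 WT libraries (SD) and 76.3 ± 26.9 CPM over the 6 Het libraries (SD). The library labelled WT replicate 11 had the lowest WT level, 51.1 CPM. The library labelled Het replicate 9 had the highest of all, 130 CPM. The labels do not give the allele or what it does to Myt1l RNA. These levels therefore cannot show whether a label is right or wrong. Rnaseh1, a neighbour of Myt1l, had a log2 difference, Het minus WT, of -0.15 (SE 0.11, limma adjusted p = 0.445). It did not pass, and its value cannot test the labels. The genotype differences of the 4 genes are also given without WT replicate 11 and Het replicate 9, and so are other calls that are lost without them. These 2 libraries were picked by their Myt1l values, after those were seen. For the tissue label, 14 transcription factors of hypothalamic regions were read, of which 13 were in the table. They summed to 92.4 to 118 CPM in WT and 100.03 to 111 CPM in Het. With no other tissue beside them, these sums cannot test the label. Markers of the striatum, a neighbouring region, were present as well and summed over 12 genes to 376 to 606 CPM in WT and 490 to 809 CPM in Het.

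The level of the peptide genes stood far above that of their receptors. Per kilobase of exon, Gal had 467 ± 32.9 CPM in WT (SD, n = 5). By the mean over all 11 libraries, used for each rank here, Gal was at rank 163 of 14856 genes with a length. Nts followed with 171 ± 14.7 CPM per kilobase and rank 463, and Ntsr2 with 56.6 ± 19.96 CPM per kilobase and rank 1242. Galr1 had 1.48 ± 0.38 CPM per kilobase and rank 9066. The order was the same in Het, with 374 ± 45.2, 149 ± 21.1, 45.3 ± 19.8 and 1.57 ± 0.36 CPM per kilobase (SD, n = 6), and in neither genotype did the range of 1 of these 4 genes overlap that of the next.

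The other receptors lay between Ntsr2 and Galr1 or below them. Ntsr1 had 2.08 ± 0.56 CPM per kilobase in WT, and its WT range of 1.39 to 2.74 overlapped that of Galr1, from 1.06 to 1.97, so these neighbours in the order did not differ beyond their spread. Sort1, which encodes sortilin, a sorting receptor that binds neurotensin, had 2.93 ± 0.066 CPM per kilobase, and its relative Sorl1 had 4.58 ± 0.57. Galr2, the galanin receptor that couples to Gq, was at 0 in 2 of the 5 WT and 1 of the 6 Het libraries and at most 0.592 CPM in the rest. Spx, whose peptide spexin binds galanin receptors, and Gpr151, an orphan receptor related to them, were below the filter of 1 CPM, with means of 0.546 and 0.722 CPM in WT. Galp and Galr3 are not analysed here.

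**Figure D1:**
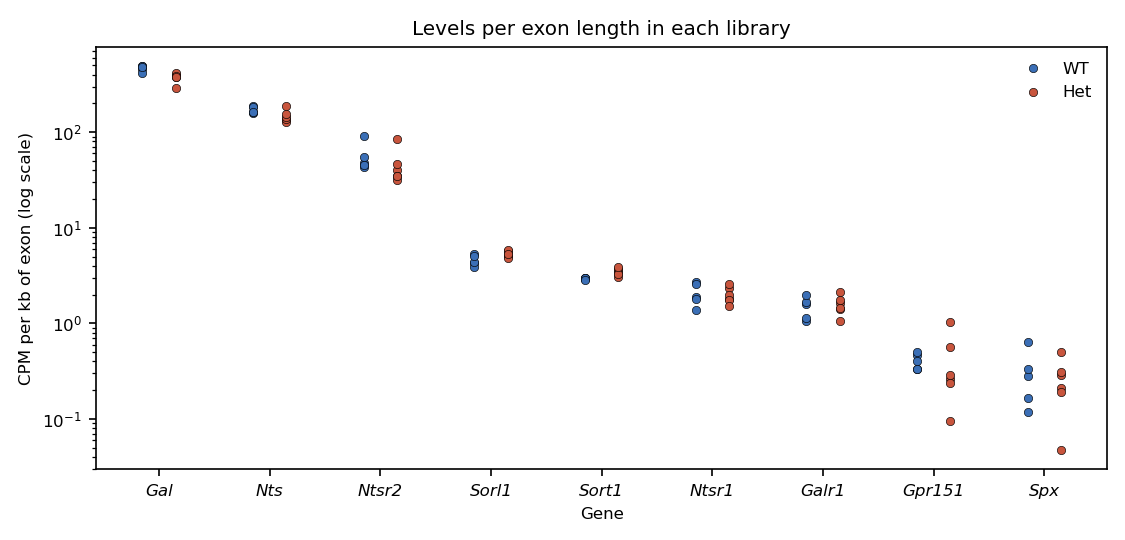
CPM per kilobase of exon on a log scale for genes of the galanin and neurotensin systems, 1 point per library, WT (n = 5) in blue and Het (n = 6) in red. Gal and Nts stand above all receptors, and Galr1, with WT values of 1.06 to 1.97, overlaps Ntsr1.

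Gal was lower in Het. The WT libraries had 360 (replicate 4), 387 (replicate 6), 386 (replicate 3), 326 (replicate 7) and 382 CPM (replicate 11). The Het libraries had 297 (replicate 2), 310 (replicate 4), 331 (replicate 7), 309 (replicate 5), 296 (replicate 8) and 227 CPM (replicate 9). All 6 Het values lay below the WT mean and 5 lay below the lowest WT value, so the groups met only where Het replicate 7 exceeded WT replicate 7. Gal averaged 368 ± 26.0 CPM over 5 WT libraries (SD) and 295 ± 35.6 CPM over 6 Het libraries (SD). In the limma fit across 13184 genes with sex as a term, the log2 difference, Het minus WT, was -0.34 (SE 0.078, 95% interval -0.50 to -0.17, adjusted p = 0.0278). Gal (ENSMUSG00000024907, mm10 chromosome 19 from 3409915 to 3414544) is a protein-coding gene and no other annotated exon overlaps it.

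The direction of Gal held in all 29 alternative settings, with log2 differences from -0.48 to -0.23, and it passed in 16 of them. Without WT replicate 11 and Het replicate 9 the difference was -0.24 (limma adjusted p = 0.0637). It also missed the threshold without WT replicate 6 (adjusted p = 0.0760), Het replicate 2 (adjusted p = 0.0591), Het replicate 8 (adjusted p = 0.0503) or Het replicate 9 (adjusted p = 0.0504). Het replicate 9 was the lowest Gal library, and its Myt1l level was the highest of all. In bulk tissue, fewer galanin cells and less Gal RNA per cell cannot be told apart.

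Gal was the only 1 of the 4 genes that passed between genotypes, where 3.44% of all tested genes passed, 2.3% as higher and 1.14% as lower. Of the genes that passed, 66.9% were higher, a share that moved to 48.9% with libraries centred on their median and to 78.0% with quantile normalization, where Gal did not pass (limma adjusted p = 0.0851). Of the 4 differences 3 were negative, with a median of -0.26, beside a median of -0.016 over all tested genes. Over all tested genes 47.0% of differences were positive, the share to set beside each count of signs below. The shares of 3.44%, 2.3% and 1.14% are likewise those to set beside each count of genotype calls below.

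Nts was lower in 5 of 6 Het libraries and did not pass. The WT libraries had 197 (replicate 4), 202 (replicate 6), 236 (replicate 3), 230 (replicate 7) and 201 CPM (replicate 11). The Het libraries had 169 (replicate 2), 159 (replicate 4), 173 (replicate 7), 182 (replicate 5), 195 (replicate 8) and 233 CPM (replicate 9). The first 5 of these Het values lay below every WT value, and Het replicate 9 lay among the highest WT values. Nts averaged 213 ± 18.4 CPM over 5 WT libraries (SD) and 185 ± 26.3 CPM over 6 Het libraries (SD). Its log2 difference was -0.19 (SE 0.068, 95% interval -0.33 to -0.042, limma adjusted p = 0.123). Without WT replicate 11 and Het replicate 9, picked by their Myt1l values, it was -0.28 and passed (limma adjusted p = 0.0323). It did not pass in the other 28 alternative settings, in all of which it was negative. Nts (ENSMUSG00000019890) lies on mm10 chromosome 10 from 102481756 to 102490486.

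**Figure D2:**
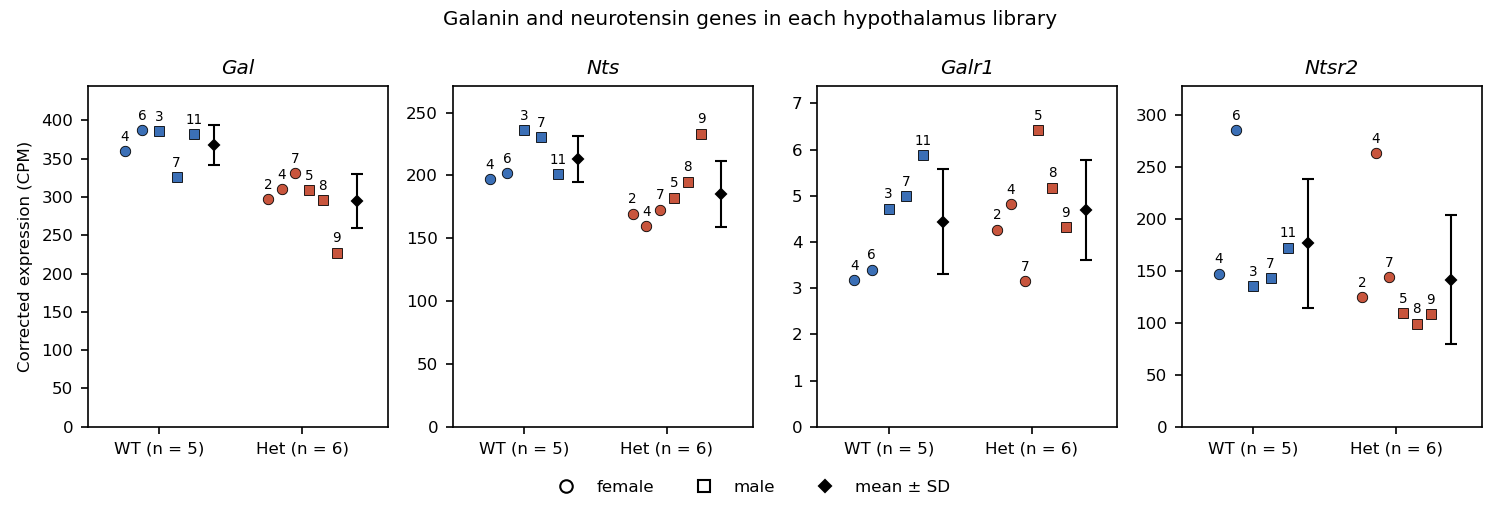
Corrected expression in CPM of Gal, Nts, Galr1 and Ntsr2 in each library, WT (n = 5) and Het (n = 6), with the replicate number above each point, circles for females, squares for males and diamonds with bars for mean ± SD. The Het values of Gal lie at 227 to 331 CPM against 326 to 387 CPM in WT, and Ntsr2 has 1 library far above the rest in each genotype.

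Galr1 was a low gene whose groups overlapped. The WT libraries had 3.17 (replicate 4), 3.3996 (replicate 6), 4.72 (replicate 3), 4.99 (replicate 7) and 5.88 CPM (replicate 11). The Het libraries had 4.27 (replicate 2), 4.82 (replicate 4), 3.14 (replicate 7), 6.41 (replicate 5), 5.18 (replicate 8) and 4.32 CPM (replicate 9). Galr1 averaged 4.43 ± 1.14 CPM over 5 WT libraries (SD) and 4.69 ± 1.09 CPM over 6 Het libraries (SD), and 3 of 6 Het values lay above the WT mean. The log2 difference was 0.12 (SE 0.16, 95% interval -0.21 to 0.46, limma adjusted p = 0.685), an interval that leaves out a fall as large as that of Gal but not a rise of similar size. It was 0.24 without WT replicate 11 and Het replicate 9 and did not pass. Galr1 (ENSMUSG00000024553) lies on chromosome 18 from 82392380 to 82406777.

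Ntsr2 varied more than the other 3 genes. The WT libraries had 147 (replicate 4), 285 (replicate 6), 135 (replicate 3), 143 (replicate 7) and 172 CPM (replicate 11). The Het libraries had 125 (replicate 2), 263 (replicate 4), 144 (replicate 7), 109 (replicate 5), 99.2 (replicate 8) and 108 CPM (replicate 9). WT replicate 6 and Het replicate 4, both female, stood above all others, and 4 of the 6 Het values lay below the lowest WT value. The coefficient of variation was 35.3% in WT and 43.7% in Het, beside 7.05% and 12.1% for Gal.

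Ntsr2 averaged 176 ± 62.3 CPM over 5 WT libraries (SD) and 141 ± 61.8 CPM over 6 Het libraries (SD). The log2 difference was -0.40 (SE 0.17, 95% interval -0.77 to -0.039, limma adjusted p = 0.178). It was -0.34 without WT replicate 11 and Het replicate 9 (limma adjusted p = 0.339), and without Het replicate 4 it was -0.54 and passed (limma adjusted p = 0.0452). With both high libraries left out, a choice made after seeing the data, Ntsr2 averaged 149 ± 15.98 CPM over 4 WT and 117 ± 17.6 CPM over 5 Het libraries (SD). The log2 difference was then -0.39 (limma adjusted p = 0.0776). Ntsr2 (ENSMUSG00000020591) lies on mm10 chromosome 12 from 16653382 to 16660227, 12.9 Mb from Myt1l on the same chromosome.

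The 2 high Ntsr2 libraries were set beside 12 astrocyte genes. In none of the 12 did both libraries exceed all other 9, and Gfap, an intermediate filament of astrocytes, did so in 1 of them. The 2 libraries were also the highest in other genes. How often other pairs of libraries are the highest was not counted, so the share given next does not show a wider departure. Of all tested genes 262, or 1.99%, had both libraries above the other 9, and in 28 of these, Ntsr2 included, the mean of the 2 libraries stood at least as far above the median of the rest. Among 165 listed genes there were 4, chosen here after their values were seen: Ntsr2, Prep (a peptidase), Gnai2 (an inhibitory G alpha subunit) and Pcsk1n, whose product proSAAS inhibits a peptide-cutting convertase. Pcsk1n had 312 CPM in WT replicate 6 and 362 CPM in Het replicate 4, against 49.6 to 157 CPM in the other 9. The mean of the 2 libraries was 2.03 times the median of the other 9 for Ntsr2 and 0.874 to 1.09 times for the astrocyte genes. The summed level of the 12 genes was 5959 to 6691 CPM in WT and 5845 to 6200 CPM in Het. Between genotypes, Slc1a2, the main glutamate transporter of astrocytes, rose from 160 ± 17.2 to 207 ± 16.3 CPM, and Gjb6, a connexin, fell from 333 ± 31.5 to 279 ± 28.3 CPM, a call lost without WT replicate 11 and Het replicate 9 (limma adjusted p = 0.0916) and kept in 9 of 29 alternative settings, while the other 10 missed the threshold and the median log2 difference of the list was -0.022.

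**Figure D3:**
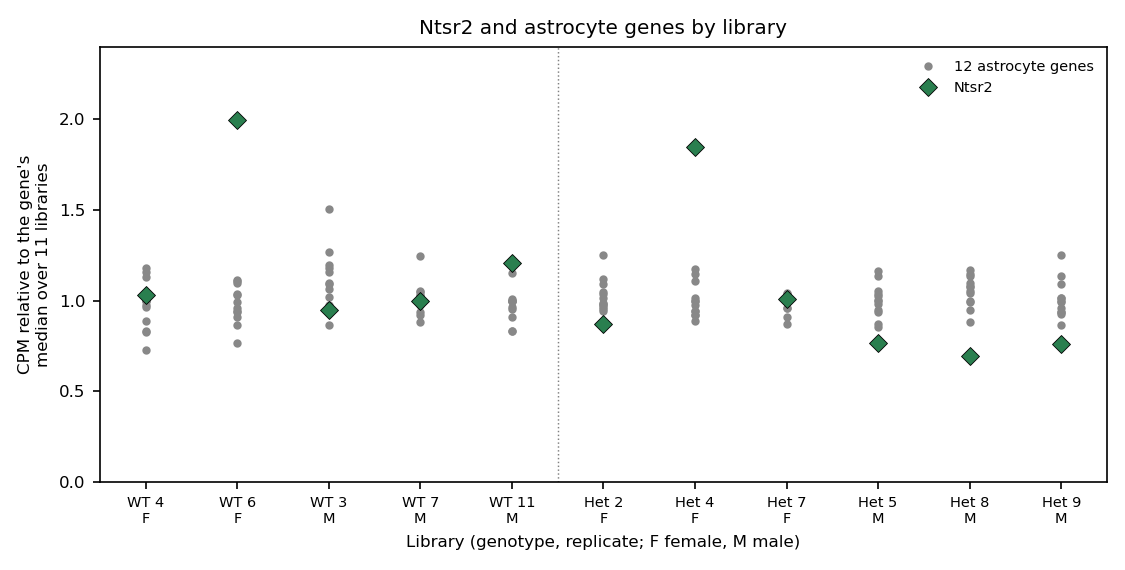
CPM of Ntsr2 (diamonds) and of 12 astrocyte genes (grey points) in each library, divided by each gene's median over the 11 libraries. Ntsr2 is high in WT replicate 6 (285 CPM) and Het replicate 4 (263 CPM), while the astrocyte genes of those libraries stay near their medians.

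Females and males were compared in the same fit, and none of the 4 genes passed, where 0.197% of all tested genes did, 0.0758% as higher in females and 0.121% as lower. At an unadjusted p under 0.05 there were 3 of the 4, beside 12.2% of all tested genes. Galr1 had 3.76 ± 0.75 CPM in females (SD, n = 5) and 5.25 ± 0.77 CPM in males (SD, n = 6), a log2 difference, female minus male, of -0.45 (SE 0.16, limma adjusted p = 0.265). Nts had 180 ± 18.3 CPM in females and 213 ± 23.0 CPM in males, a difference of -0.22 (SE 0.068, limma adjusted p = 0.215). Ntsr2 had 193 ± 75.2 CPM in females and 128 ± 27.5 CPM in males, a difference of 0.57 (SE 0.17, limma adjusted p = 0.207), which became 0.21 without WT replicate 6 and Het replicate 4. Gal differed by 0.12 (SE 0.078, limma adjusted p = 0.558).

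The genotype difference was not found to depend on sex. The difference in females less that in males was 0.15 for Gal (SE 0.16), -0.12 for Nts (SE 0.14), 0.24 for Galr1 (SE 0.32) and 0.21 for Ntsr2 (SE 0.36). None of the 4 passed, 0 of the 4 had an unadjusted p under 0.05, and in the same limma fit 0% of all tested genes passed and 613 had an unadjusted p under 0.05. These standard errors leave room for interactions as large as the genotype differences themselves. Within females alone Gal was 373 ± 19.0 CPM (SD, 2 WT) against 313 ± 17.3 CPM (SD, 3 Het), and within males alone 364 ± 33.5 CPM (SD, 3 WT) against 277 ± 43.9 CPM (SD, 3 Het). Nts was 199 ± 3.34 against 167 ± 6.98 CPM in females and 222 ± 18.8 against 203 ± 26.5 CPM in males.

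Each library's description holds an identifier with leading digits, and the labels do not say what those prefixes stand for. Libraries share prefix 14308 or 14309, except WT replicate 4, the only library of prefix 14111, which enters neither comparison below. Within prefix 14308, with 2 WT and 2 Het males, the log2 differences were -0.23 for Gal, -0.31 for Nts, 0.23 for Galr1 and -0.41 for Ntsr2. Within prefix 14309, with 2 WT and 4 Het libraries of both sexes, they were -0.48, -0.076, -0.033 and -0.72. Gal, Nts and Ntsr2 were thus negative within both prefixes, none passed within either, and Galr1 turned sign.

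The remaining neurotensin receptors went in more than 1 direction and did not pass. Sort1 was 21.3 to 22.7 CPM in WT and 22.9 to 29.5 CPM in Het, so the groups did not overlap. Of all tested genes, 2.02% had every Het value above every WT value and 1.33% every Het value below. The log2 difference of Sort1 was 0.24 (SE 0.082, limma adjusted p = 0.107), and that of Sorl1 was 0.22 (SE 0.083, limma adjusted p = 0.128). Ntsr1 had a difference of -0.073 (SE 0.16). Reads of Sort1 and Sorl1 are uncertain where exons of Gm12523 and Gm16214 overlap them on the opposite strand, since the use of strand in counting is not stated. In all, 0 of 5 tested neurotensin genes passed by limma and 4 had an unadjusted p under 0.05, beside 22.3% of all tested genes. That share is the one to set beside each such count for genotype below.

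Some signalling genes that act downstream of the receptors rose in Het. Of 12 Gq pathway genes, through which Ntsr1 and Galr2 act, 4 rose and 8 missed the threshold. The median log2 difference of these 12 was 0.23. Gnaq, the Gq alpha subunit, rose from 148 ± 3.498 to 194 ± 11.1 CPM, and Prkcb, a protein kinase C, from 52.9 ± 3.00 to 69.4 ± 5.28 CPM, with no overlap of the groups in either. Gna11, a close relative of Gnaq, and Itpr1, the inositol trisphosphate receptor, rose by 0.21 and 0.33 on the log2 scale. Without WT replicate 11 and Het replicate 9 there were 3 that passed, 2 of them among these 4, and Gna11 (adjusted p = 0.0964, limma) and Itpr1 (adjusted p = 0.0892, limma) did not.

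Of 12 tested genes of inhibitory G protein signalling, through which Galr1 acts, 1 rose, 11 missed the threshold, and the median log2 difference was 0.024. The riser was Adcy5, an adenylyl cyclase that is rich in the striatum, from 28.0 ± 3.37 to 43.5 ± 8.39 CPM. Gnao1, the most abundant inhibitory type alpha subunit of neurons, had a log2 difference of 0.19 (limma adjusted p = 0.0680). All 12 striatal markers, Adcy5 among them, had a positive difference, with a median of 0.45, and 5 rose (Drd1, Adora2a, Pde10a, Rasd2 and Adcy5). Adora2a passed in 13 of 29 alternative settings, and Drd1, Pde10a, Rasd2 and Adcy5 in 24 to 26. The part of the striatal level in these signalling differences was not tested. These genes serve many receptors, and the table does not say in which cells they changed.

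Among genes that make or break down the peptides, 1 passed. Of 12 processing genes, 10 had a negative difference, 1 fell and the median was -0.17. The gene that fell was Qpct, the glutaminyl cyclase that closes the first residue of neurotensin and of some other peptides, from 136 ± 6.91 to 118 ± 5.73 CPM with no overlap (log2 difference -0.22, limma adjusted p = 0.0472). It passed in 7 of 29 alternative settings, and without WT replicate 11 and Het replicate 9 it was -0.22 and did not pass (limma adjusted p = 0.0739). Cpe, a carboxypeptidase that trims the cut peptides, had a log2 difference of -0.23 (limma adjusted p = 0.0513). Of 6 peptidases that degrade neurotensin or related peptides, 0 passed by limma and 1, Ece1, had an unadjusted p under 0.05, with a log2 difference of 0.25.

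Other hypothalamic peptide genes were lower more often than higher. Of 21 tested, 5 fell, 1 rose and 15 did not pass, and their median was -0.24, beside -0.34 for Gal and -0.19 for Nts. The genes that fell were Avp (vasopressin, -0.65), Oxt (oxytocin, -0.49), Pmch (melanin-concentrating hormone, -0.45), Adcyap1 (PACAP, -0.39) and Hcrt (orexin, -0.38), and Pdyn (dynorphin, 0.41) rose. Of 29 alternative settings, Avp passed in 26, Oxt and Hcrt in 23 each, Adcyap1 in 15, Pdyn in 14 and Pmch in 6. Without WT replicate 11 and Het replicate 9 there were 4 that fell and 0 that rose, with Pmch (limma adjusted p = 0.0816) and Pdyn (limma adjusted p = 0.0625) past the threshold no longer.

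Genes listed for neurons that make galanin or neurotensin were read next. Of 9 genes of preoptic galanin neurons none passed by limma, 3 had an unadjusted p under 0.05 and the median was -0.12. Calcr, the calcitonin receptor, went from 8.94 ± 1.57 to 6.80 ± 1.22 CPM (log2 difference -0.38, limma adjusted p = 0.145), and Gad1, which makes GABA, had a difference of 0.16 (limma adjusted p = 0.106). Of 7 genes listed for lateral hypothalamic galanin or neurotensin neurons 1 fell, Hcrt, and the median was -0.12. Hcrt encodes orexin and is the same call as among the other peptides above. Its level cannot be read as that of galanin or neurotensin neurons. Lepr, the leptin receptor carried by many neurotensin neurons, had a difference of -0.75 (SE 0.24, limma adjusted p = 0.0879). It was a low gene, at 1.48 to 2.39 CPM in WT and 0.419 to 1.72 CPM in Het.

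**Figure D4:**
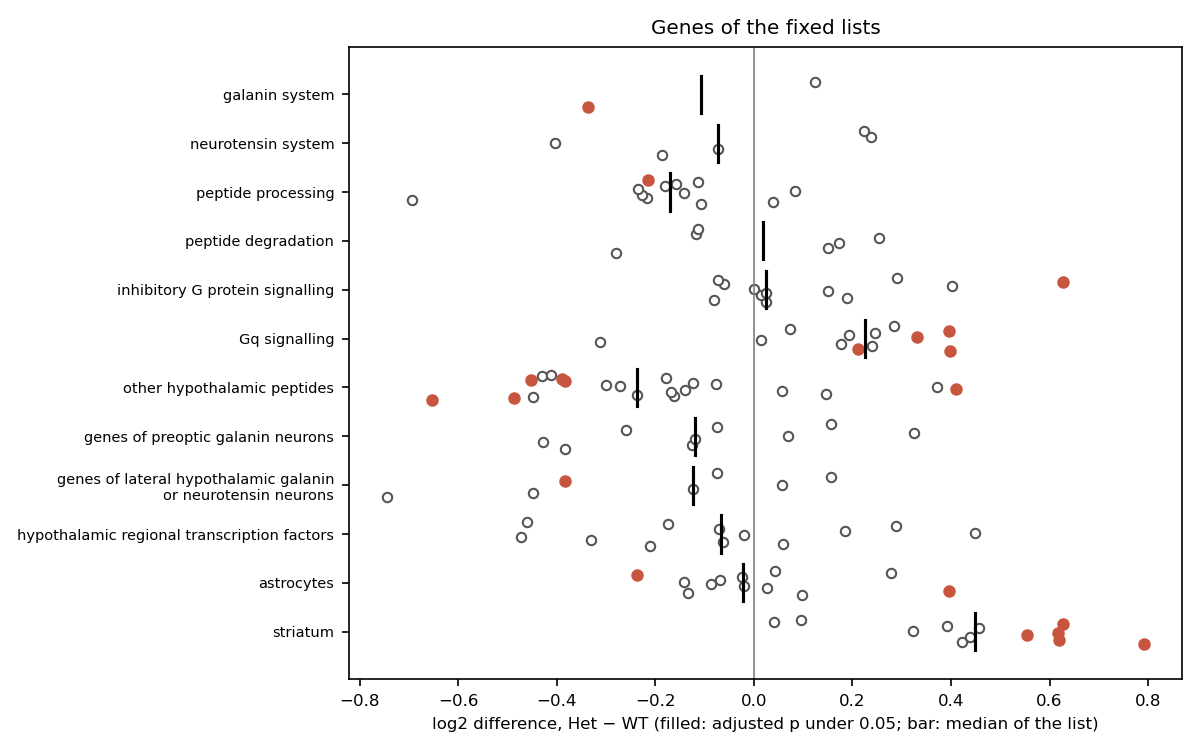
Log2 differences, Het minus WT, of the tested genes of 12 lists, filled where the limma adjusted p was under 0.05, with a bar at each list's median. Gal is the only filled gene of both peptide systems, Gq signalling has a median of 0.23 and the other peptides one of -0.24.

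Markers of other regions and cell types were measured beside these genes. The striatal mean over 12 genes went against Gal across the 11 libraries (Pearson r -0.82, permutation p = 0.00149, adjusted over 14 relations 0.0209). Spearman's rho was -0.81 (permutation p = 0.00389, adjusted p = 0.0545). Without the 2 libraries farthest from the median striatal level r was -0.62 (permutation, adjusted p = 0.334) and did not pass with these 9 libraries. Within the 6 libraries of prefix 14309 it was -0.85 (permutation, adjusted p = 0.514), and without WT replicate 11 and Het replicate 9 it was -0.86 (permutation, adjusted p = 0.0546). With genotype and sex taken out it was -0.52, a value given without a test. Libraries were permuted across both genotypes, so these p-values also carry the genotype differences of Gal and of the striatal genes. The part of the striatal level in the Gal difference was not tested. Of 7 thalamic markers 1 rose, Tcf7l2, and the median was 0.19. Without WT replicate 11 and Het replicate 9 none of the 7 passed, Tcf7l2 included (limma adjusted p = 0.0820), and the median was 0.037. Tcf7l2 passed in 15 of 29 alternative settings. Of 6 cortical and hippocampal markers none passed by limma, 2 had an unadjusted p under 0.05 and the median was -0.073, which turned to 0.0046 without those 2 libraries. The 2 genes were Tbr1, with a log2 difference of 0.80, and Fezf2, with one of -0.50.

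For cell types, 8 neuronal markers had a median of 0.054, 6 of oligodendrocytes 0.030, 6 of microglia -0.047, 5 of endothelium 0.019, 5 of ependyma and tanycytes -0.065 and 4 of choroid plexus -0.42. None of these passed by limma, and 2, 0, 1, 0, 1 and 1 of them had an unadjusted p under 0.05. Of 12 tested hypothalamic regional transcription factors none passed by limma, 5 had an unadjusted p under 0.05 and the median was -0.068, which turned to 0.043 without WT replicate 11 and Het replicate 9. Cga, the only tested pituitary marker, had a difference of -0.56.

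The levels of the 4 genes were compared pair by pair across the 11 libraries. For the 6 pairs, r ran from -0.30 to 0.51 and 0 passed, with 0 at an unadjusted p under 0.05 for r. The highest was that of Gal and Ntsr2, with r 0.51 (permutation p = 0.115, adjusted p = 0.634) and rho 0.75 (permutation p = 0.00981, adjusted p = 0.0687), and r fell to 0.23 without the 2 libraries farthest from the median Gal level. Gal and Nts had an r of 0.021 over 11 libraries (permutation p = 0.954) and 0.59 without WT replicate 11 and Het replicate 9. With genotype and sex taken out, r was -0.72 for Gal and Nts and -0.84 for Nts and Galr1, values given without a test. The mean of the 12 astrocyte genes and Ntsr2 had r -0.41 (permutation p = 0.208) and rho -0.65 (permutation p = 0.0360, adjusted p = 0.168). Since the deposited values had residual variation removed, relations between libraries are those left after that step.

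The genes most like each of the 4 were taken by the root mean square difference of log2 levels over the 11 libraries, each gene centred on its own mean. For Gal, whose own levels had a root mean square distance of 0.22 from their mean, they were Aga (0.092), which encodes a lysosomal amidase, Gpr1 (0.097), a receptor for chemerin, and Cntn6 (0.10), a neural adhesion molecule. For Nts, at 0.18, they were Ttc4 (0.089), Nme6 (0.090) and Slc49a4 (0.092). For Galr1, at 0.29, they were Tmc7 (0.12), Thap2 (0.12) and Gmeb2 (0.14). For Ntsr2, at 0.47, they were Nenf (0.13), which encodes the secreted protein neudesin, Rp9 (0.16) and Fam122a (0.17). None of these 12 genes passed between genotypes.

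**Figure D5:**
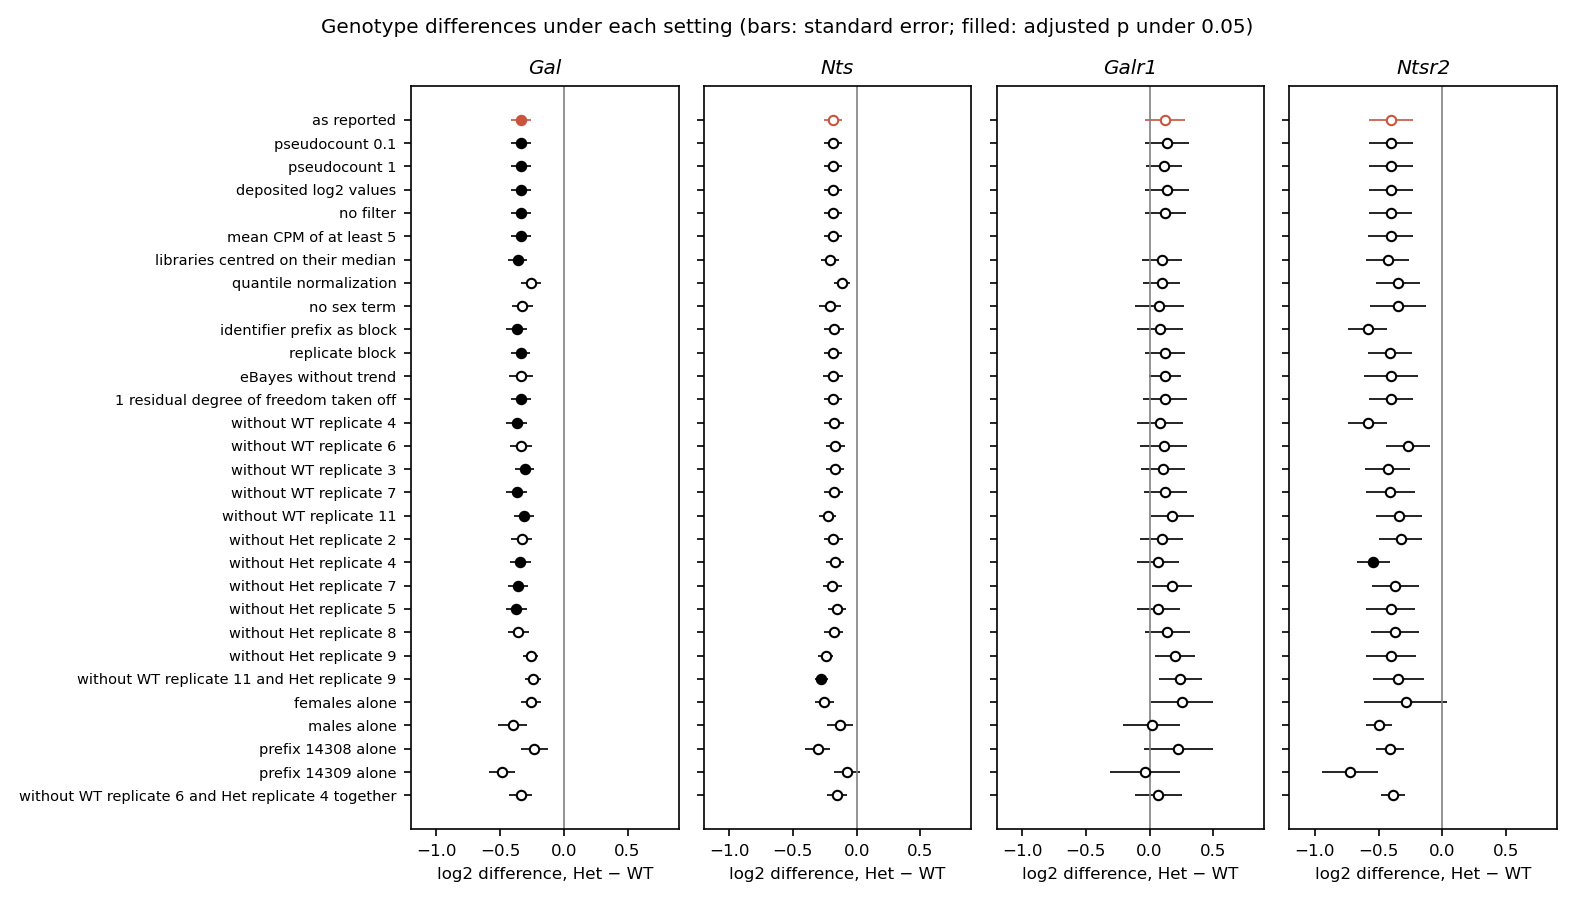
Log2 differences, Het minus WT, of the 4 genes in the reported fit (red) and under each alternative setting (black), with bars for the standard error and filled points where the limma adjusted p was under 0.05. Gal stays between -0.48 and -0.23 and crosses the threshold with the setting, and Galr1 lies on both sides of 0.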

How the data were processed

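RNA from 11 hypothalamus libraries was measured by sequencing, after extraction with a Zymo kit and library preparation with the SMARTer Ultra Low RNA kit, per the labels' protocols. Trimmomatic, Bowtie2, STAR and HTSeq with build mm10 are named in the submitters' processing notes, without versions. The authors deposited log2 CPM corrected by RUVr, per the name of the deposited table, a method that estimates unwanted variation from a model's residuals and removes it. The sources used here do not give its settings or whether counting used strand. All columns have the same upper quartile, 5.473.

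CPM were recovered by back-transforming the deposited log2 values less their floor of -3.574. Of the values under 1000 counts, 100% were whole multiples of 1 step per library within 0.02, so 1 corrected count stood for 0.0417 to 0.0423 CPM. Raw read depth is unknown. A correction of this kind removes residual variation, so standard errors and p-values may be too small.

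Genes with a mean of at least 1 CPM were tested (13184, leaving out 1680) on log2(CPM + 0.5) with limma 3.58.1 in R 4.3.3 (eBayes, trend fitted). The model held genotype and sex. Two-sided p-values were Benjamini-Hochberg adjusted across all tested genes, and passing means an adjusted p under 0.05. Fold differences are on that log2 scale. Relations used two-sided permutation tests with 100000 resamples. The limma fit was also run on simulated data with independent noise for each gene and library. Such data cannot show whether the correction makes p-values too small. Exon lengths and coordinates came from GENCODE M21, in which 14856 genes were found. The 4 genes and all lists were chosen with earlier results of these data known. The rule for named genes took these 4, every listed gene that passed, for lists with none the 2 smallest p-values, the 3 nearest profiles of each of the 4, and Myt1l and Rnaseh1. Cpe, Gnao1, Lepr, Gfap, Pcsk1n, Prep, Gnai2 and the receptors that missed the threshold lie outside it and were named after their values were seen. Some genes that the rule takes are not named above, among them Thop1, Fezf1, Lhx6 and those of the cell types without a call.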

Additional observations from a re-analysis of the deposited data

Results flagged for a closer look

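Ntsr2 in WT replicate 6, at 285 CPM, was the highest of 5 libraries, and its gap to the next was large for the range of the group. Ntsr2 in Het replicate 4, at 263 CPM, was the highest of 6 libraries and stood apart in the same way. Both are female libraries of prefix 14309. Gal in Het replicate 9, at 227 CPM, was the lowest of 6 libraries and was set apart by its gap. These 3 came from 8 sets of values, 4 genes in each of 2 genotypes, and chance alone would set apart about 1 set in 20.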

How the results depend on the processing

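The correction made before deposit, the small number of libraries and genotype labels that the Myt1l level does not tell apart limit every call. The causes of the changes below were not tested. Gal, at -0.34, kept its direction in 29 of 29 alternatives and missed the threshold with quantile normalization (-0.26), no sex term (-0.33), eBayes without a trend (-0.34), without WT replicate 11 and Het replicate 9 (-0.24), in females (-0.26), in males (-0.40), in prefix 14308 (-0.23), in prefix 14309 (-0.48) and without WT replicate 6 and Het replicate 4 (-0.34), the last chosen after seeing the data. With 1 library left out Gal ran from -0.37 to -0.26. Nts passed without WT replicate 11 and Het replicate 9 (-0.28) and ran from -0.24 to -0.16 with 1 library left out. With 1 library left out Ntsr2 ran from -0.59 to -0.27 and passed without Het replicate 4. Galr1 turned to -0.033 in prefix 14309, and a filter of 5 CPM left it out. The interaction of Ntsr2 turned to -0.26 with prefix as a block and ran from -0.26 to 0.69 with 1 library left out, and without WT replicate 11 and Het replicate 9 those of Gal and Nts turned to -0.026 and 0.052. With 1 library left out these ran from 0.0092 to 0.23 for Gal and from -0.20 to -0.019 for Nts. The r of Gal and Nts turned to -0.28 in prefix 14309 and that of Nts and Ntsr2 to 0.061 without the 2 farthest libraries.

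The number of genes called between genotypes, 453, was 200 without a sex term, 300 with prefix as a block, 170 without a trend, 189 with 1 residual degree of freedom taken off, 229 without WT replicate 11 and Het replicate 9, 0 in females (1981 at an unadjusted p under 0.05, limma), 1 in males, 6 in prefix 14308, 16 in prefix 14309 and 50 without WT replicate 6 and Het replicate 4. With 1 library left out it ran from 140 to 820. Of the called genes 66.9% were higher, against 48.9% with libraries centred on their median and 78.0% with quantile normalization. The replicate numbers 4 and 7 occur in both genotypes under different prefixes, and deviations correlated by -0.25 and 0.042. These values alone cannot show whether libraries with the same number share more than that number. With the replicate block 437 genes passed and Gal was at -0.34.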
